A study of Mus musculus with 5 samples.

Results

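The sarcomere is the contractile unit of striated muscle, in which thin filaments of actin and thick filaments of myosin slide past each other. Thin filaments are anchored in the Z-disc and thick filaments are held together in the M-band, and the giant protein titin links both. Chaperones, ubiquitin ligases and the intermediate filament desmin build, renew and align these structures, and a melanocyte has no sarcomeres. The 43 genes described here code for this scaffold: the Z-disc, the M-band, the myosin light chains and the proteins that lie along or cap the thin filament. They were taken by gene symbol from a deposited table of 54699 genes, in which all 43 were found, and myosin heavy chains, actins and troponins are not among them. They fall into 9 groups by role.

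The values are from B16F10, a pigmented mouse melanoma cell line, in 5 RNA sequencing libraries, 1 per group. The line was given a lentivirus for forced expression of Myod1, the transcription factor of skeletal muscle, or of Pparg, a nuclear receptor of fat cells, or a lentivirus with the empty expression vector, and these 3 cultures were collected on day 8. A further pair of cultures, collected on day 7, had a lentivirus with a short hairpin RNA against Setdb1, a histone H3 lysine methyltransferase, or with the empty knockdown vector. All 5 cultures carried a lentivirus and grew in DMEM with fetal bovine serum, and the promoter of the vectors is not given in the sources used here. Myod1 and Pparg expression were compared with the same empty expression vector library, Setdb1 knockdown with the empty knockdown vector library, and both controls with each other. Each difference below compares single libraries and has no replicate check, so no p-value is given.

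The libraries held 16214802 to 18300670 reads assigned to genes. Levels are FPKM, fragments per kilobase of gene length scaled to library size, and can be compared between genes. The intervals of levels are Wilson intervals at 95%, from the part of all reads of 1 library that fell on the gene, and those of ratios are exact Clopper-Pearson intervals. Both cover counting error only. Differences are given as log2((FPKM + 1)/(FPKM + 1)) of a treated library over its control, which makes changes at low levels look smaller than they are, and a gene was called higher or lower at a size of 1 or more on this scale (2-fold). The 12842 genes that reached an FPKM of 1 in any of the 5 libraries were compared. Ratios of FPKM, written as fold, carry no added 1. Where the control had 0 reads the ratio was taken against 3 reads, the limit that a count of 0 allows, and is written as "at least". The targeted genes were checked first: Myod1 had an FPKM of 260.1 in its own library and 0 reads in the other 4, Pparg had 44.4 in its own and 0 reads in the other 4, and Setdb1 had 0.867 in the knockdown library against 9.82 in its control, and 8.41, 15.2 and 10.3 in the Myod1, Pparg and empty expression vector libraries.

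Marker lists of 6 cell types were read beside the genes. The summed FPKM of 10 melanocyte markers was 3326 in the Myod1 library, 2323 in the Pparg library and 7846 in their control, and 9123 with Setdb1 knockdown against 8581, with none at 0 reads in any library. The last sum was carried by Pmel (4347 against 2993 FPKM): 7 of the 10 markers were below their control with Setdb1 knockdown (median log2 difference -0.29), and Mitf (-1.54) and Slc45a2 (-1.49) passed the limit. Of 11 skeletal muscle regulators and enzymes, 7 were higher and 1, Pax3, was lower with Myod1 expression (sum 3344 against 32.7 FPKM), while Myf5 and Pax7 had 0 reads there. Of 11 cardiac markers, 3 were higher and 1 lower (sum 497 against 26.6 FPKM), and Myl7, Tnni3, Ryr2 and Nkx2-5 had 0 reads. Tnnt2 carried the Myod1 sum (478 against 0.0711 FPKM), while Myh6 and Gata4, also higher, reached 3.52 and 3.21 FPKM. Nppb, the marker that was lower, made most of the control sum (26.3 FPKM, against 11.6 with Myod1 expression). Of 10 smooth muscle markers, which include Des, 4 were higher (sum 518 against 15.8 FPKM), and Myocd had 0 reads. Of 10 adipocyte markers, 5 were higher with Pparg expression (sum 320 against 0.871 FPKM), with Lpl, Adig and Retn at 0 reads, and the summed FPKM of 8 fibroblast markers was 0.526 to 2.85 in the 5 libraries. The part of these lists in the results below was not tested.

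Promoter sequences were read for the genes, since 37 of the 43 moved the same way with Myod1 expression and Myod1 is known to bind the E-box, whose letters are CANNTG. The sequences are the 250 bases before a RefSeq transcript start in GRCm38.p6, 5′ to 3′ on the strand of the gene, and are printed for the 4 genes with the highest log2 difference with Myod1 expression whose window lies outside annotated exons, for Des, which also rose with Setdb1 knockdown, and for Tpm3, the only one of the 43 that was lower. Capitals mark each CANNTG. The windows are Mylpf chr7:127211358-127211607, plus strand, Mybph chr1:134193198-134193447, plus strand, Klhl41 chr2:69669870-69670119, plus strand, Smyd1 chr6:71262282-71262531, minus strand, Des chr1:75360042-75360291, plus strand, and Tpm3 chr3:90072401-90072648, plus strand (248 bases, since the last 2 of the window lie in an annotated exon). The windows of Mylpf and Smyd1 lie inside the span that the deposited table gives these genes, outside all annotated exons, and the other 4 windows end before the first base of the gene.
Mylpf: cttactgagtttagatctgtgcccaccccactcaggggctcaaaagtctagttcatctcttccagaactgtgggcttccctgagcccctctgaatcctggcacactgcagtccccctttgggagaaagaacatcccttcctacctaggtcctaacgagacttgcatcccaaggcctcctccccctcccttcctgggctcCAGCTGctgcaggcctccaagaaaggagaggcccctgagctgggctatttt
Mybph: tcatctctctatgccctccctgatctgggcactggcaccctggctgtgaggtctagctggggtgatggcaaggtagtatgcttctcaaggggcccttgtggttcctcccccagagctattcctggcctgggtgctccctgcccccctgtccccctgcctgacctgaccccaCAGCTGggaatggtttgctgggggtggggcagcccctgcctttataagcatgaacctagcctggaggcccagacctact
Klhl41: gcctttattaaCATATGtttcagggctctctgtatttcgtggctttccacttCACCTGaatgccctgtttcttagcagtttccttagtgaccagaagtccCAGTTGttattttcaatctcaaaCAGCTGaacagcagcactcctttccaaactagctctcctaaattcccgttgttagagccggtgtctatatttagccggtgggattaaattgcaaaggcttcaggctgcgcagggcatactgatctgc
Smyd1: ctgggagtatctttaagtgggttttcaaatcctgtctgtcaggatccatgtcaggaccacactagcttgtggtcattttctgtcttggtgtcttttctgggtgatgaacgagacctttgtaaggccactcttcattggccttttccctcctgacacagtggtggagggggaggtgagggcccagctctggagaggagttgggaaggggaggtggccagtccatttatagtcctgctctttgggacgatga
Des: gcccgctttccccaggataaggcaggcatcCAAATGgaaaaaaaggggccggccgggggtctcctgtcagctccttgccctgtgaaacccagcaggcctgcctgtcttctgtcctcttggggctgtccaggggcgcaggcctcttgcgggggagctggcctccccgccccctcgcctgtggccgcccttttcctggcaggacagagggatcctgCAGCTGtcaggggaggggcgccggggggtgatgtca
Tpm3: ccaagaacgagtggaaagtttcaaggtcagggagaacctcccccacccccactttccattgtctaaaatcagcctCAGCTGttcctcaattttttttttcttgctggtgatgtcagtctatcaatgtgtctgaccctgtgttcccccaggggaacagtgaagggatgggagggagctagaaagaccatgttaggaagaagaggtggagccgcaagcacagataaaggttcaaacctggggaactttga

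Mylpf, Mybph and Tpm3 held 1 CANNTG in these windows, Des held 2, Klhl41 held 4 and Smyd1 held none. The first base of the CAGCTG in each, a form of CANNTG with a GC centre, lay 51 bases before the start in Mylpf, 79 in Mybph, 127 in Klhl41, 36 in Des and 175 in Tpm3. Windows were found for 33 of the 43 genes, 37 windows in all, because Csrp3, Flnc, Ldb3 and Tpm3 had 2 starts each. CANNTG was in 30 of the 37 windows (81.1%) against 66.2% of all 32851 windows of the same length and 57.3% of the 11532 windows of genes compared. CAGCTG was in 14 (37.8%) against 13.0% and 12.4%, the MEF2 motif in 5 (13.5%) against 2.92% and 1.71%, the CArG box of serum response factor in 3 (8.11%) against 1.47% and 1.15%, and TATAAA in 6 (16.2%) against 12.4% and 6.20%. By gene, CANNTG was in 28 of the 33, CAGCTG in 14, the MEF2 motif in 5, TATAAA in 6 and the CArG box in 2, Ldb3 and Myom1, since the windows of Ldb3 overlap and hold the same CArG box. Both strands were searched, and each CAGCTG is also counted as a CANNTG. Some windows overlap annotated exons, and those of Tmod1, Klhl40, Unc45b and Ankrd1 lie wholly in them (250 of 250 bases). The windows of Myl4 (208 bases), Tpm1 (193) and Mybpc1 (188) lie mostly in them. The exon overlap of windows outside the 43 genes was not counted. In 29 of the 37 windows the next 20 bases lay in a GENCODE M21 transcript of the gene. The motif shares are shares of letters in a window and give no binding.

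**Figure D1:**
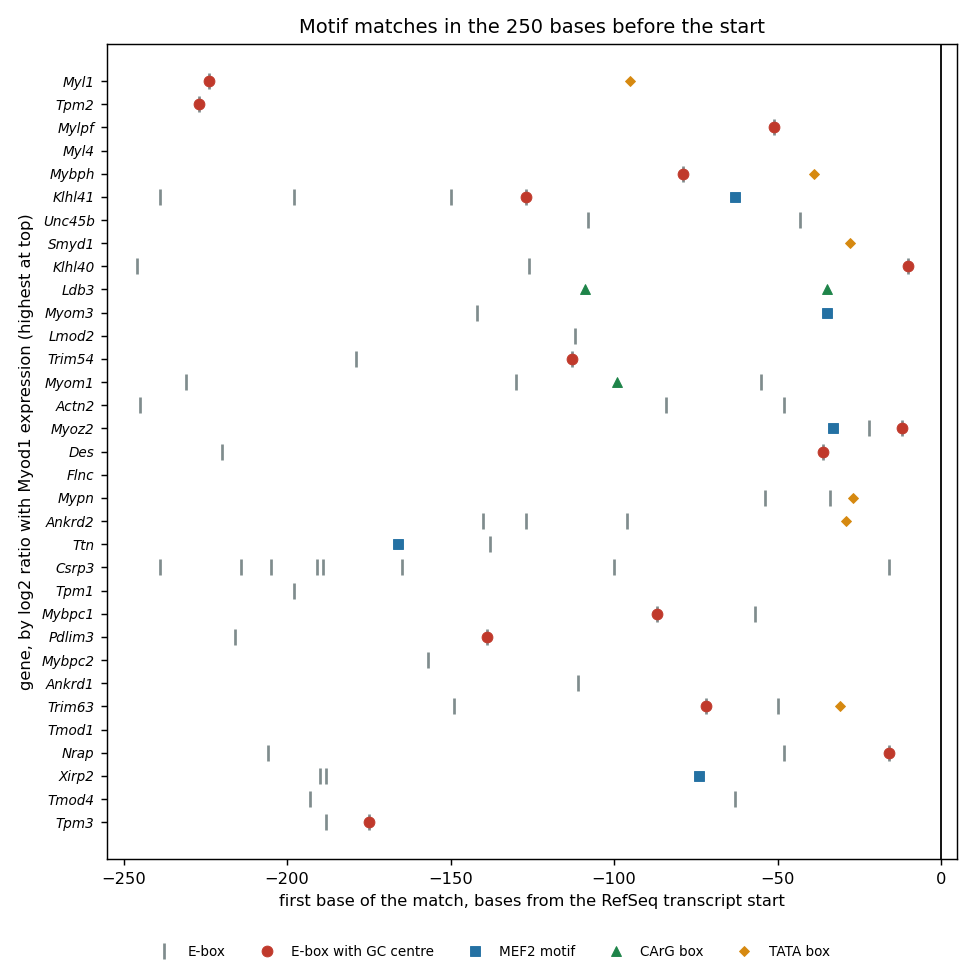
Positions of motif matches in the 250 bases before the RefSeq start, for the 33 genes with a window in order of their log2 difference with Myod1 expression (x axis, first base of the match in bases from the start; y axis, gene; each GC-centred E-box is also an E-box; genes with 2 starts show both on 1 line). E-box marks appear in 28 of the 33 genes and the GC-centred form in 14, among them Tpm3 at the bottom, the gene that was lower.

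With Myod1 expression, most of the sarcomere scaffold genes went from few or no reads to high levels, led by myosin light chains and Tpm2. Of the 43 genes, 37 were higher, against 14.0% of all genes compared, and 1, Tpm3, was lower, against 7.55%. The other 5, Myoz1, Myot, Nrap, Xirp2 and Tmod4, stayed under an FPKM of 1 in every library and were not compared. Reads of the 43 genes made up 3.31% of the Myod1 library and 0.122% of its control, and their summed FPKM was 17510 against 236. The median log2 difference over all 43 was 4.17, beside 0.02 over all genes compared.

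Of the 43 genes 38 passed the filter on low values, and 27 of these passed only through the Myod1 library, so for those 27 a higher value there followed from passing. Among 8 genes whose FPKM reached 1 in either control, Mylpf, Tmod1, Tpm1, Des, Ankrd2, Trim63 and Fbxo32 were higher with Myod1 expression and Tpm3 was lower. In both control libraries 26 of the 43 genes had at most 3 reads and 16 had 0 reads. Myoz3, Csrp3, Myot, Lmod3, Ankrd1 and Trim54 had 0 reads in all 4 libraries other than Myod1. The Myod1 library had the highest FPKM of the 5 for 41 genes, the exceptions being Tpm3 and Fbxo32. All 38 calls were also made against the empty knockdown vector library. In bulk RNA, more cells that express a gene and more RNA per cell cannot be told apart.

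**Figure D2:**
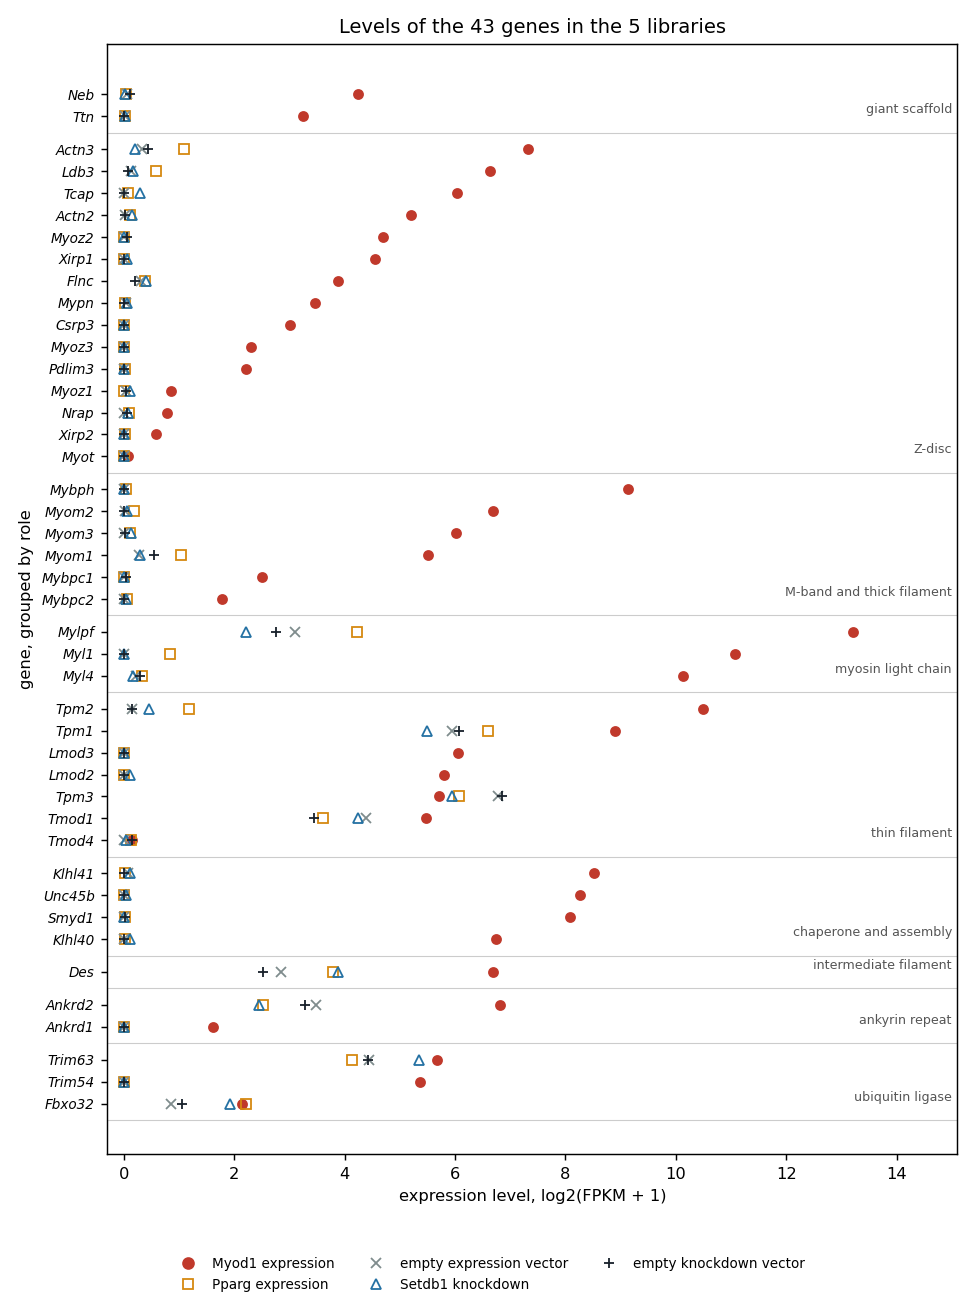
Level of each of the 43 genes in each of the 5 libraries as log2(FPKM + 1) (x axis), with genes grouped by role and ordered by level with Myod1 expression (y axis); each symbol is 1 library. The filled Myod1 points lie to the right of the other 4 for 41 genes, while Tpm1, Tpm3, Tmod1, Trim63, Ankrd2, Des and Mylpf are at an FPKM above 1 in all 5.

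The myosin light chains, which bind the neck of the myosin head, had the highest summed FPKM of the 9 groups with Myod1 expression (12784). Mylpf and Myl1 were the highest of the 43 genes there, while Tpm2 stood above Myl4. Mylpf, the regulatory light chain of fast fibres (ENSMUSG00000030672, chr7:127208890-127214298, plus strand), had an FPKM of 9518 with Myod1 expression, 17.6 with Pparg expression, 7.61 with the empty expression vector, 3.66 with Setdb1 knockdown and 5.74 with the empty knockdown vector. It was the gene of rank 4 by FPKM among all genes of the Myod1 library and alone made 54.4% of the summed FPKM of the 43 genes there. The other 4 libraries lay between 3.66 and 17.6, so Mylpf was low but not at 0 without Myod1, and the ratio to the control was 1251-fold (interval 1055 to 1495).

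Myl1, the essential light chain of fast fibres (ENSMUSG00000061816, chr1:66924295-66945404, minus strand), had an FPKM of 2147 with Myod1 expression, 0.780 with Pparg expression, 0 with the empty expression vector, 0 with Setdb1 knockdown and 0 with the empty knockdown vector. It was the gene of rank 14 with Myod1 expression and at least 24250-fold higher than the control. Of the 50-base stretches of its longest transcript, 23.4% also occur in the pseudogene Mylf-ps, so how the authors treated shared reads can move its value. Myl4, the essential light chain of atrial and embryonic muscle (ENSMUSG00000061086, chr11:104550663-104595753, plus strand), had an FPKM of 1119 with Myod1 expression, 0.259 with Pparg expression, 0.172 with the empty expression vector, 0.117 with Setdb1 knockdown and 0.219 with the empty knockdown vector. It was 6520-fold higher with Myod1 expression (interval 3812 to 12245), and no other library had more than 23 of its reads.

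Within the essential light chain family the muscle forms came to make up most of the FPKM, while the nonmuscle form was higher as well. Myl6, the light chain of nonmuscle and smooth muscle myosin, made 94.95% of the family's FPKM in the empty expression vector library and 5.20% with Myod1 expression, where Myl1 made 59.0% and Myl4 30.8%. The FPKM of Myl6 itself was 189 with Myod1 expression against 64.3 in the control, so its share was lower because the muscle forms differed more. Among the regulatory light chains Mylpf went from 24.3% to 98.1%, and Myl12a, a nonmuscle form, from 69.1% to 0.879%, although the FPKM of Myl12a was 85.3 against 21.7.

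The tropomyosins, coiled proteins that lie along the actin filament, went different ways. Tpm2, the beta-tropomyosin of muscle (ENSMUSG00000028464, chr4:43514711-43523765, minus strand), had an FPKM of 1433 with Myod1 expression, 1.26 with Pparg expression, 0.105 with the empty expression vector, 0.372 with Setdb1 knockdown and 0.103 with the empty knockdown vector. It had 5 reads in each control and 65542 with Myod1 expression, a ratio of 13619-fold to the empty expression vector (interval 5835 to 41944). Tpm1, which gives muscle and cytoplasmic isoforms (ENSMUSG00000032366, chr9:67022590-67049406, minus strand), had an FPKM of 475 with Myod1 expression, 95.8 with Pparg expression, 60.5 with the empty expression vector, 44.2 with Setdb1 knockdown and 65.9 with the empty knockdown vector. It was expressed in all 5 libraries and was 7.84-fold higher with Myod1 expression (interval 7.64 to 8.05).

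Tpm3, which gives a slow muscle form and cytoplasmic forms (ENSMUSG00000027940, chr3:90072649-90100902, plus strand), had an FPKM of 51.5 with Myod1 expression, 66.6 with Pparg expression, 109 with the empty expression vector, 60.9 with Setdb1 knockdown and 115 with the empty knockdown vector. The Myod1 library was the lowest of the 5 and both controls were the highest, with a log2 difference of -1.07 for Myod1 expression and -1.14 against the empty knockdown vector library. Values per gene sum all isoforms, and 17.0% of the 50-base stretches of its longest transcript are shared with Tpm3-rs7. Of the summed FPKM of the 4 tropomyosin genes, Tpm3 made 47.8% in the empty expression vector library and 2.60% with Myod1 expression, and Tpm2 made 0.0462% and 72.3%. Tpm4, the nonmuscle tropomyosin, went from 25.6% to 1.10%, and its own FPKM was lower as well, 21.8 against 58.2.

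The leiomodins lengthen thin filaments by adding actin at the pointed end, and the tropomodulins cap that end. Lmod2 had 1706 reads with Myod1 expression, 0 with Pparg expression, 0 with the empty expression vector, 3 with Setdb1 knockdown and 0 with the empty knockdown vector, an FPKM of 54.9 with Myod1 expression that was at least 591-fold higher. Lmod3 had 2275 reads with Myod1 expression (65.3 FPKM) and 0 in the other 4 libraries (at least 788-fold higher). Both muscle leiomodins were thus at or near 0 in every library without Myod1, and the smooth muscle form Lmod1 rose beside them to 57.2 FPKM from 0.403 (log2 difference 5.37).

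Tmod1, the tropomodulin of striated muscle and red cells (ENSMUSG00000028328, chr4:46038935-46116032, plus strand), had an FPKM of 43.5 with Myod1 expression, 11.2 with Pparg expression, 19.9 with the empty expression vector, 18.0 with Setdb1 knockdown and 9.93 with the empty knockdown vector. The order was Myod1 highest, then the empty expression vector and Setdb1 knockdown, then Pparg and the empty knockdown vector, with a log2 difference of 1.09 for Myod1 expression, close to the limit of 1. That call was lost when each library was divided by the sum of its FPKM or scaled to its 75th percentile. The controls differed from each other by -0.94, so the difference was 2.02 against the empty knockdown vector library. Tmod4, the tropomodulin of skeletal muscle, had 0 to 3 reads in every library.

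The giant scaffold proteins rose as well. Ttn, titin (ENSMUSG00000051747, chr2:76703980-76982547, minus strand), had 15503 reads with Myod1 expression, 20 with Pparg expression, 27 with the empty expression vector, 24 with Setdb1 knockdown and 11 with the empty knockdown vector, which at a gene length of 116825 bases is an FPKM of 8.44 with Myod1 expression and of 0.00563 to 0.0141 in the others. Neb, nebulin, which runs along the thin filament (ENSMUSG00000026950, chr2:52136647-52378474, minus strand), had 7461 reads with Myod1 expression, 15 with Pparg expression, 20 with the empty expression vector, 9 with Setdb1 knockdown and 38 with the empty knockdown vector, an FPKM of 17.9 against 0.0183 to 0.0855. The other libraries held at most 38 reads of either gene, and the ratios to the control were 597-fold (interval 409.8 to 906) and 388-fold (251 to 635).

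Of the 15 Z-disc genes 11 were higher with Myod1 expression and 4 were not compared, with a median log2 difference of 3.42 over all 15. Actn3, the alpha-actinin of fast fibres, which cross-links actin (ENSMUSG00000006457, chr19:4861223-4877909, minus strand), had an FPKM of 158 with Myod1 expression, 1.12 with Pparg expression, 0.254 with the empty expression vector, 0.149 with Setdb1 knockdown and 0.351 with the empty knockdown vector. It was the Z-disc gene with the highest FPKM, 623-fold above the control (interval 357 to 1207). Actn2, the alpha-actinin of all striated muscle, had 2141 reads with Myod1 expression, 6 with Pparg expression, 1 with the empty expression vector, 8 with Setdb1 knockdown and 1 with the empty knockdown vector, and its FPKM with Myod1 expression was 35.9. Of the summed FPKM of the 4 alpha-actinins, Actn3 made 56.5% and Actn2 12.8% with Myod1 expression, and Actn4, a nonmuscle form, went from 86.7% in the control to 24.2%. The FPKM of Actn4 itself was also lower, 67.7 against 164.

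Ldb3, a PDZ and LIM protein that binds alpha-actinin (ENSMUSG00000021798, chr14:34526603-34588682, minus strand), had an FPKM of 98.3 with Myod1 expression, 0.504 with Pparg expression, 0.0902 with the empty expression vector, 0.124 with Setdb1 knockdown and 0.0490 with the empty knockdown vector. The Myod1 library held 9436 reads and the other 4 held 5 to 59, for a ratio of 1089-fold to the control (interval 574 to 2383). Tcap, telethonin, which caps titin in the Z-disc, reached 64.8 FPKM (at least 335-fold higher), with 0 to 4 reads elsewhere. Flnc, the filamin of muscle, had an FPKM of 13.7 with Myod1 expression, 0.311 with Pparg expression, 0.241 with the empty expression vector, 0.328 with Setdb1 knockdown and 0.153 with the empty knockdown vector. Its part of the summed filamin FPKM went from 0.149% to 17.5% with Myod1 expression. Flna, the largest part of that sum in both libraries, was lower with Myod1 expression, at 59.5 FPKM against 148.

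Xirp1, an actin-binding protein with Xin repeats, reached 22.5 FPKM (at least 715-fold higher), with 0 reads in 3 of the other libraries and 4 with Setdb1 knockdown. Among the calsarcins, which tie calcineurin to alpha-actinin, Myoz2 reached 25.0 FPKM (at least 465-fold higher) and made 84.0% of their summed FPKM, Myoz3 reached 3.95, and Myoz1 had 0.807 (24 reads). Mypn, myopalladin, reached 10.1 FPKM against 3 reads in the control, Csrp3, the muscle LIM protein, 7.05 (at least 103-fold higher), and Pdlim3, a PDZ and LIM protein, 3.61 (at least 101-fold higher). The Z-disc genes under 1 FPKM with Myod1 expression were Myoz1, Nrap, with 62 reads (0.716 FPKM, at least 21.5-fold higher), Xirp2, with 95 (0.504, at least 32.9-fold higher), and Myot, myotilin, with 2 (0.0576). Levels within the Z-disc in 1 library therefore ran from 0.0576 to 158 FPKM.

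All 6 M-band and thick filament genes were higher with Myod1 expression, with a median log2 difference of 5.63. Mybph, the myosin-binding protein H (ENSMUSG00000042451, chr1:134193448-134201232, plus strand), had 20390 reads with Myod1 expression, 1 with Pparg expression, 0 with the empty expression vector, 0 with Setdb1 knockdown and 0 with the empty knockdown vector, an FPKM of 557 with Myod1 expression that was at least 7061-fold higher. It was the gene of rank 78 in that library and made 98.6% of the summed FPKM of the myosin-binding protein family, in which Mybpc1 reached 4.65 and Mybpc2 2.41 FPKM. Myom2, the M-band cross-linker of fast and adult muscle (ENSMUSG00000031461, chr8:15057653-15133541, plus strand), had 14284 reads with Myod1 expression, 22 with Pparg expression, 2 with the empty expression vector, 6 with Setdb1 knockdown and 0 with the empty knockdown vector, an FPKM of 103 with Myod1 expression and a ratio of 7420-fold (interval 2054 to 61276). Myom3 had an FPKM of 64.0 with Myod1 expression, 0.0778 with Pparg expression, 0 with the empty expression vector, 0.0984 with Setdb1 knockdown and 0.00990 with the empty knockdown vector.

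Myom1, the myomesin found in all striated muscle (ENSMUSG00000024049, chr17:71002633-71126856, plus strand), had an FPKM of 44.6 with Myod1 expression, 1.05 with Pparg expression, 0.211 with the empty expression vector, 0.232 with Setdb1 knockdown and 0.469 with the empty knockdown vector. It was the only myomesin with more than 22 reads in any library other than Myod1, and its ratio with Myod1 expression was 212-fold (interval 153 to 302). With Myod1 expression Myom2 made 48.6% of the summed myomesin FPKM, Myom3 30.3% and Myom1 21.1%, whereas Myom1 made 93.8% in the control. Myom1 overlaps Myl12a on the opposite strand, which stood at 85.3 FPKM with Myod1 expression, 44.7 with Pparg expression and 21.7 in their control. Since the counting of strand is not given in the sources used here, the low Myom1 values outside the Myod1 library cannot be told apart from reads of Myl12a.

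**Figure D3:**
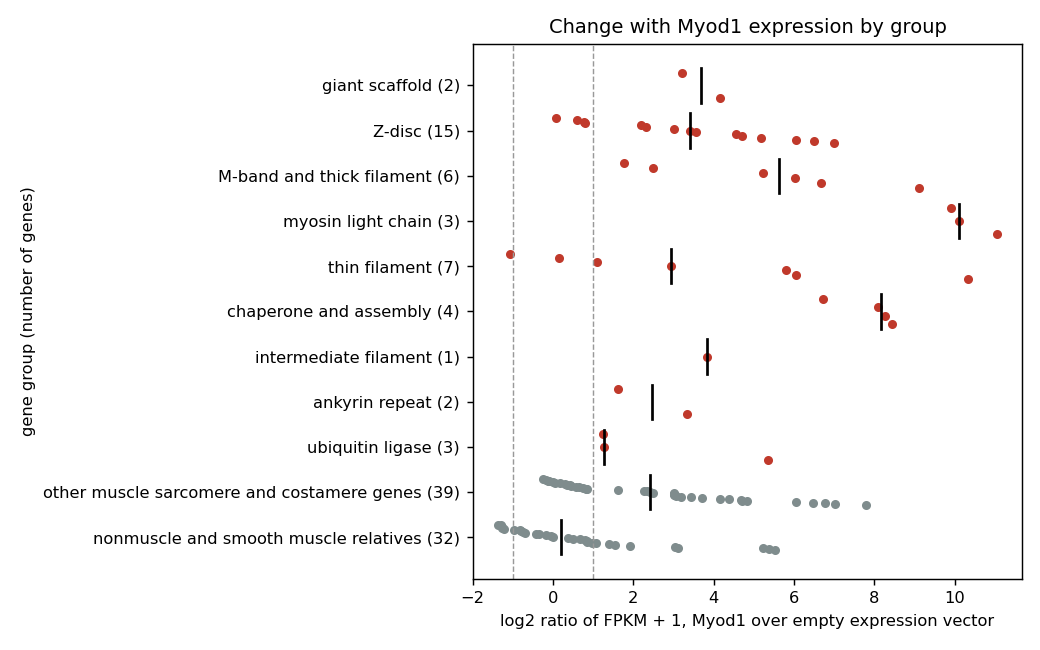
Log2 difference between Myod1 expression and the empty expression vector for each gene (points; x axis, from FPKM + 1), by group (y axis, number of genes in brackets); bars are medians over all genes of the group and dashed lines the 2-fold limit. The myosin light chains (median 10.11) and the chaperones (8.17) lie farthest to the right, and Tpm3, in the thin filament group, is the single red point beyond the limit to the left.

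As a group, the 4 assembly factors had the next highest differences after the light chains, with a median of 8.17. Klhl41, a Kelch protein that stabilises nebulin (ENSMUSG00000075307, chr2:69670120-69684230, plus strand), had 14553 reads with Myod1 expression, 1 with Pparg expression, 2 with the empty expression vector, 4 with Setdb1 knockdown and 0 with the empty knockdown vector, an FPKM of 366 with Myod1 expression and a ratio of 7560-fold (interval 2092 to 62430). Unc45b, the myosin chaperone (ENSMUSG00000018845, chr11:82910550-82943403, plus strand), had 21540 reads with Myod1 expression, 0 with Pparg expression, 0 with the empty expression vector, 2 with Setdb1 knockdown and 0 with the empty knockdown vector, an FPKM of 305 that was at least 7460-fold higher. Smyd1, a lysine methyltransferase of myofibril assembly (ENSMUSG00000055027, chr6:71213940-71322233, minus strand), had 19393 reads with Myod1 expression, 1 with Pparg expression, 0 with the empty expression vector, 0 with Setdb1 knockdown and 1 with the empty knockdown vector, an FPKM of 271 that was at least 6716-fold higher. Each of the 3 had at most 4 reads in any other library. Klhl40, which stabilises nebulin and leiomodin, reached 106 FPKM and was at least 1439-fold higher.

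Des, desmin, the intermediate filament that ties Z-discs together (ENSMUSG00000026208, chr1:75360329-75368579, plus strand), had an FPKM of 102 with Myod1 expression, 12.9 with Pparg expression, 6.20 with the empty expression vector, 13.6 with Setdb1 knockdown and 4.75 with the empty knockdown vector. All 3 treated libraries were above both controls, Myod1 farthest, at 16.4-fold its control (interval 14.8 to 18.3). Of the ankyrin repeat proteins, which bind titin, Ankrd2 (ENSMUSG00000025172, chr19:42036038-42045110, plus strand) had an FPKM of 111 with Myod1 expression, 4.74 with Pparg expression, 10.2 with the empty expression vector, 4.47 with Setdb1 knockdown and 8.75 with the empty knockdown vector. It was 10.9-fold higher with Myod1 expression (interval 9.39 to 12.8), and the Pparg and Setdb1 libraries were below both controls. Ankrd1 reached 2.05 FPKM (57 reads) and had 0 reads elsewhere.

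The ubiquitin ligases of muscle divided. Trim54, a ligase of the MuRF family, had 902 reads (39.9 FPKM) with Myod1 expression and 0 in the others (at least 312-fold higher). Trim63, MuRF1, known from muscle atrophy (ENSMUSG00000028834, chr4:134315120-134329629, plus strand), had an FPKM of 50.3 with Myod1 expression, 16.6 with Pparg expression, 20.7 with the empty expression vector, 39.6 with Setdb1 knockdown and 20.5 with the empty knockdown vector. It was present in every library, and the Myod1 value was 2.43-fold its control (interval 2.25 to 2.63). Fbxo32, atrogin-1, the other atrophy ligase (ENSMUSG00000022358, chr15:58175879-58214932, minus strand), had an FPKM of 3.39 with Myod1 expression, 3.61 with Pparg expression, 0.816 with the empty expression vector, 2.80 with Setdb1 knockdown and 1.06 with the empty knockdown vector. The 3 treated libraries lay above both controls, with Pparg and Myod1 within each other's counting intervals (3.30 to 3.95 and 3.06 to 3.75). The log2 differences with Myod1 expression were 1.24 for Trim63 and 1.27 for Fbxo32, and both calls were lost when each library was divided by the sum of its FPKM.

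**Figure D4:**
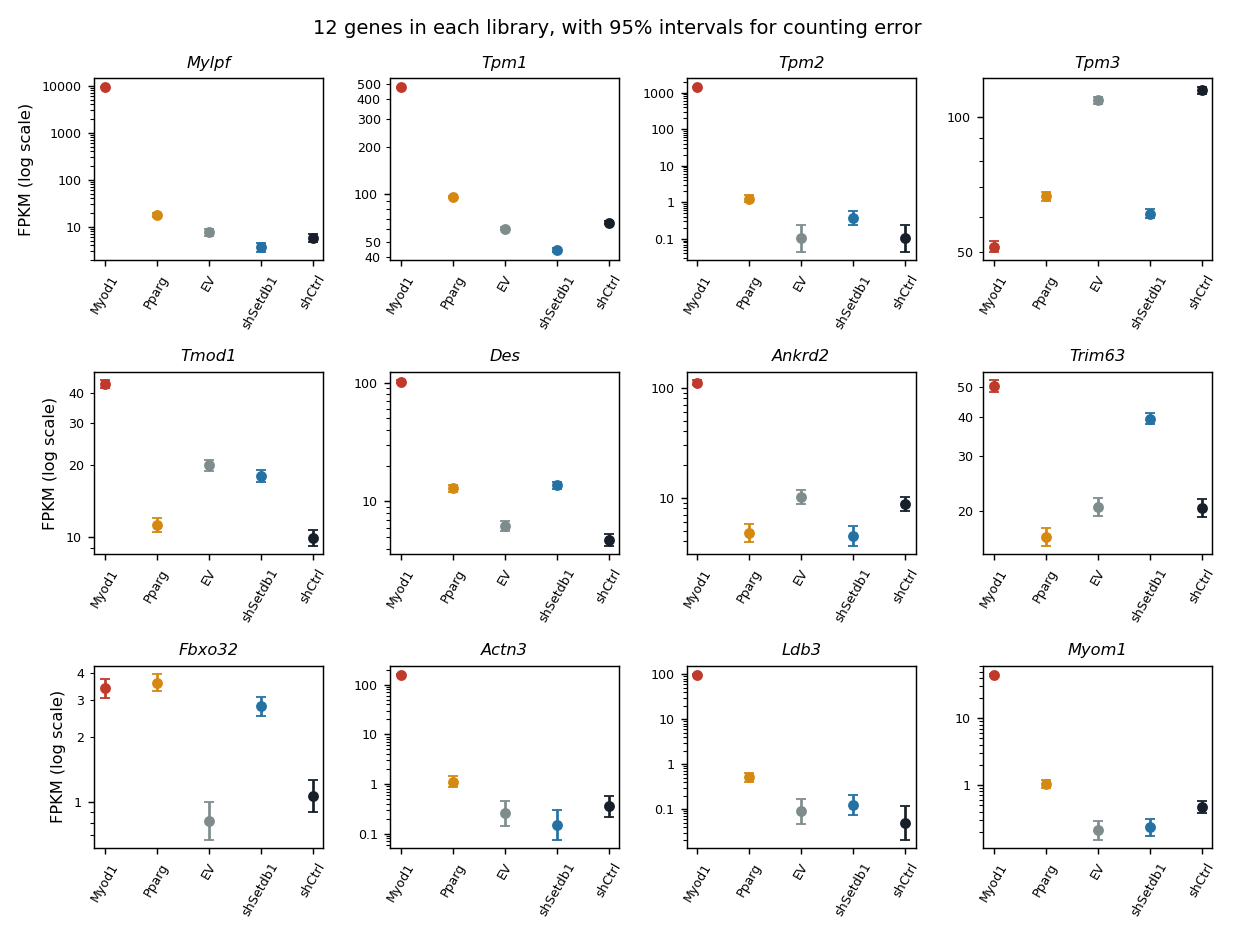
FPKM (y axis, log scale, its range differing between panels) of 12 genes in each library (x axis; EV, empty expression vector; shCtrl, empty knockdown vector); points are single libraries and bars 95% Wilson intervals for counting error. Tpm3 is lowest with Myod1 expression (51.5) and highest in both controls (109 and 115), and Fbxo32 and Des are above both controls in all 3 treated libraries.

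With Pparg expression Mylpf, Tpm2 and Fbxo32 were higher at the limit on FPKM + 1, 3 of 43 against 4.22% of all genes compared, and none was lower, against 2.30%. Only 7 of the 43 had the FPKM of at least 1 in the empty expression vector library that passing on the lower side needs, and 27 passed the filter only through the Myod1 library, so nothing is read from these counts against all genes. Reads of the 43 genes made up 0.137% of the library, and the summed FPKM was 235 against 236. Tpm1 and Tpm3, which went opposite ways, made 69.1% and 71.8% of these sums. The median log2 difference over the 43 was 0.02, beside -0.02 over all genes compared. Myod1 itself had 0 reads in this library.

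Mylpf stood at 17.6 FPKM against 7.61, a ratio of 2.31-fold (interval 1.89 to 2.84). Tpm2 had 70 reads against 5, a ratio of 11.9-fold (4.88 to 37.9), at an FPKM of 1.26. Fbxo32 was 4.43-fold higher (3.54 to 5.59). The 3 calls were also made against the empty knockdown vector library, where Des, at 0.95 against its own control, passed the limit too (1.27). The 3 genes share no role, being a light chain, a tropomyosin and a ubiquitin ligase.

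Several more of the 43 genes, picked after their values were seen, had more reads with Pparg expression than in the control at levels too low for the limit on FPKM + 1. Myl1 had 31 reads against 0 (at least 8.81-fold). Myom2 had 22 against 2, a ratio of 9.37-fold (2.30 to 82.2). Actn3 had 62 against 12 (4.40-fold, interval 2.35 to 8.98). Ldb3 had 59 against 9 (5.59-fold, 2.75 to 12.8), and Myom1 210 against 36 (4.97-fold, 3.48 to 7.29). The FPKM of these 5 genes with Pparg expression, 0.130 to 1.12, was far below that with Myod1 expression, 44.6 to 2147. Myom3, with 9 reads against 0, and Nrap, with 7 against 0, were at least 2.56-fold and at least 1.99-fold higher. Myom1 overlaps Myl12a, whose FPKM was 44.7 against 21.7, and its reads here cannot be told apart from those of Myl12a. Over all 43 genes, 9 counting intervals lay above a ratio of 1, 4 lay below and 5 included it. A further 3 genes had a bound from 0 reads, and the other 22 had at most 3 reads in both libraries.

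The reads in the Pparg library as a share of those in the Myod1 library differed among the genes named next, which are only some of those described. These are shares of raw reads, not scaled between libraries. In the empty expression vector library Mylpf had 132 reads, Myom1 36, Actn3 12, Ldb3 9 and Tpm2 5. Mybph, Myl1, Unc45b and Lmod2 had 0 there. The reads of Myom1 cannot be told apart from those of Myl12a, and why the shares differed was not tested. The share was 0.00490% for Mybph, 0.0443% for Myl1, 0.107% for Tpm2, 0.225% for Mylpf, 0.625% for Ldb3, 0.861% for Actn3 and 2.86% for Myom1, and Unc45b and Lmod2 had 0 reads with Pparg expression beside 21540 and 1706. Tpm1 was 1.58-fold the control (log2 difference 0.65), Tpm3 0.611-fold (-0.70), Tmod1 0.564-fold (-0.77), Ankrd2 0.466-fold (-0.96) and Trim63 0.803-fold (-0.30). None of these 5 reached the limit. Myod1 and Pparg expression share 1 control library, so their values are given side by side only.

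With Setdb1 knockdown 1 of the 43 genes was higher, Des, against 9.34% of all genes compared, and none was lower, against 10.3%. A gene can pass the limit on the lower side only from a control FPKM of at least 1, which 8 of the 43 had in the empty knockdown vector library, and 26 had at most 3 reads in both controls, so nothing is read from these counts against all genes. Des stood at 13.6 FPKM (interval 12.8 to 14.5) against 4.75 (4.24 to 5.32) in the empty knockdown vector library, a ratio of 2.87-fold (2.52 to 3.28), and the log2 difference was 1.35 against this control and 1.02 against the other. The antisense gene Gm15179, which overlaps Des on the opposite strand, had 0 reads in the knockdown library and in both controls. The median over the 43 genes was 0.00, as over all genes compared, and their summed FPKM was 190 against 233.

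Next to the limit, Trim63 was 1.93-fold its control (log2 difference 0.92), Fbxo32 2.63-fold (0.88) and Tmod1 1.81-fold (0.80). Against the empty expression vector library Fbxo32 passed the limit (1.06), Trim63 did not (0.91) and the Tmod1 difference changed sign (-0.14). On the lower side were Tpm3 (-0.91), Ankrd2 (-0.83), Tpm1 (-0.57) and Mylpf (-0.53), of which Ankrd2 passed the limit against the other control (-1.03). Tpm2 had 20 reads against 5, a ratio of 3.61-fold (1.32 to 12.3), and Myom3 11 against 1 (9.94-fold, 1.44 to 428). Flnc had 57 reads against 24 (2.15-fold, 1.31 to 3.62), Myom1 45 against 82 (0.496-fold, 0.337 to 0.722) and Neb 9 against 38 (0.214-fold, 0.0910 to 0.45). Of the 5 genes with the highest FPKM with Myod1 expression, which also include Mylpf and Tpm2, Myl1 and Mybph had 0 reads with Setdb1 knockdown and Myl4 had 10 against 17. Klhl41, Klhl40, Tcap, Mypn and Xirp1 had 4 reads each against 0, and Myom2 had 6 against 0. Over all 43 genes 7 counting intervals lay above a ratio of 1, 6 below and 6 included it, 6 genes had a bound from 0 reads, and 18 had at most 3 reads in both libraries.

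The controls differed from each other at the limit in none of the 43 genes, against 1.23% of all genes compared that were higher with the empty knockdown vector and 1.44% that were lower. The largest differences in size were -0.94 for Tmod1, -0.35 for Mylpf, -0.32 for Des and 0.28 for Myom1. Counting intervals left out a ratio of 1 between the controls in 8 of the 43 genes, above it in Neb, Myom1, Tpm1 and Tpm3 and below it in Ttn, Mylpf, Tmod1 and Des. They were widest apart at 0.398-fold for Ttn (0.178 to 0.829), 2.23-fold for Myom1 (1.49 to 3.39) and 0.498-fold for Tmod1 (0.453 to 0.548), and Des was at 0.766-fold (0.656 to 0.894). For these 8 genes the controls lay farther apart than counting error. The log2 differences between the controls were -0.01 for Trim63, 0.08 for Tpm3 and -0.20 for Ankrd2, smaller in size than their differences with Setdb1 knockdown, while that of Tmod1 was larger in size than its own.

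**Figure D5:**
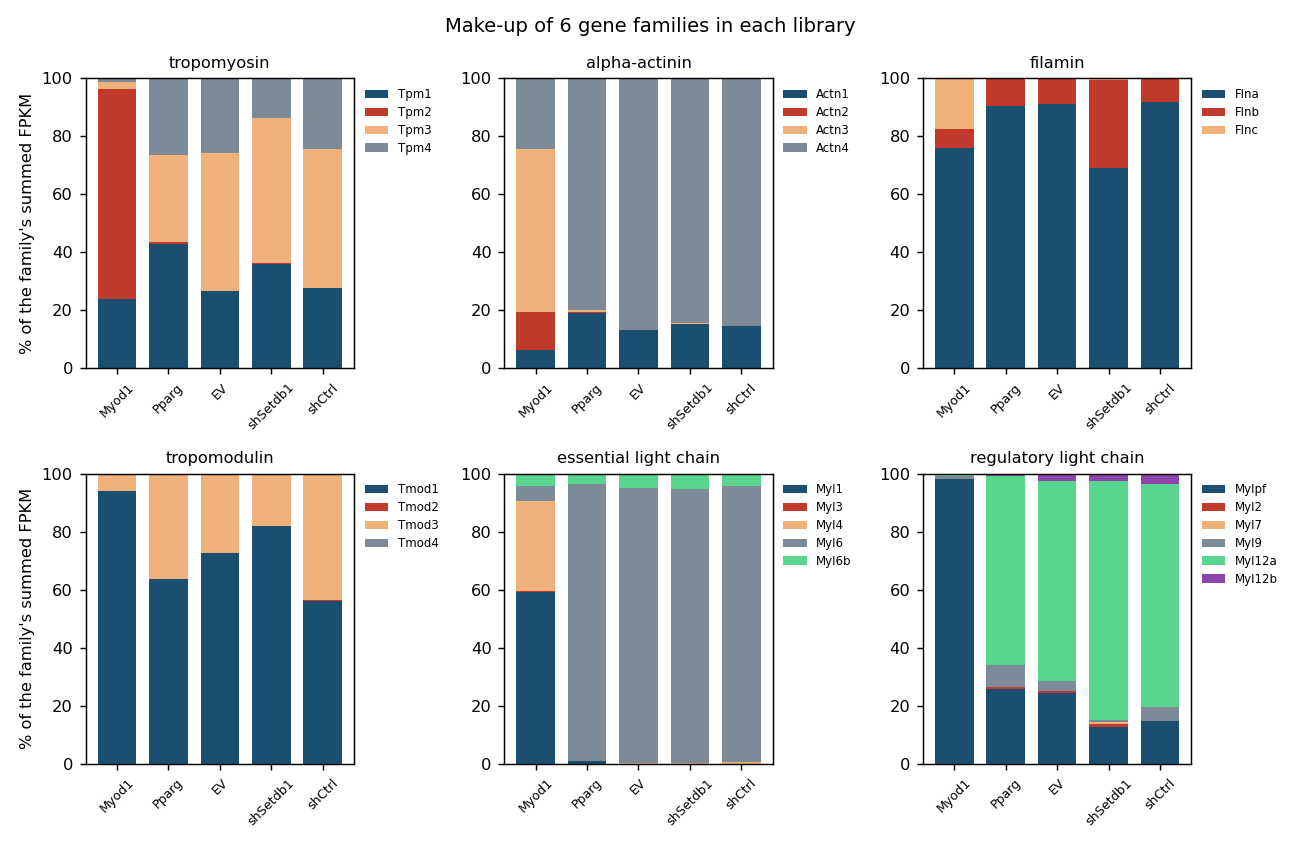
Share of each gene in the summed FPKM of its family (y axis, percent) in each library (x axis; EV, empty expression vector; shCtrl, empty knockdown vector) for 6 families; each bar is 1 library. With Myod1 expression Tpm2 takes 72.3% of the tropomyosin, Actn3 56.5% of the alpha-actinin and Mylpf 98.1% of the regulatory light chain FPKM, while the other 4 libraries are made mostly of Tpm1, Tpm3, Tpm4, Actn4 and Myl12a.

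Among 39 other muscle sarcomere and costamere genes, of which 30 were compared, 23 were higher and none lower with Myod1 expression. The 23 are 59.0% of all 39, against 14.0% of all genes compared, and the median log2 difference over all 39 was 2.42. The highest were Trim72, of membrane repair (7.79), Hspb7, a small heat shock protein (7.01), Synpo2l (6.77), Asb2, a ubiquitin ligase subunit (6.47), and Trim55, the remaining MuRF (6.06, 65.5 FPKM against 0 reads in the other 4 libraries). With Pparg expression 3 were higher, the small heat shock proteins Hspb6 (2.65), Hspb7 (2.41) and Hspb1 (1.93), and with Setdb1 knockdown 2, Hspb1 (1.81) and the kinase Dmpk (1.12). These are 7.69% and 5.13% of all 39, compared or not, against 4.22% and 9.34% of all genes compared, so they are not a result about the list. None was lower in either, and none differed at the limit between the controls. Only 12 of the 39 had an FPKM of at least 1 in the empty expression vector library and 13 in the empty knockdown vector library. For a gene that passed the filter on low values only through the Myod1 library, a higher value there followed from passing. So nothing is read from the share of higher calls with Myod1 expression against all genes, or from the absence of lower calls.

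Of 32 nonmuscle and smooth muscle relatives of the 43 genes, 9 were higher and 6 lower with Myod1 expression, with a median of 0.19 over all 32, beside 4.17 over the sarcomere genes. The highest were the light chains Myl9 (5.52) and Myl6b (5.23), Lmod1 (5.37), Pdlim7 (3.11) and Palld, palladin (3.04). With Pparg expression 3 were higher, Myl9 (1.62), Palld (1.26) and Myl12a (1.01), and none lower. With Setdb1 knockdown 4 were higher and 5 lower, the largest in size being Tpm4 (-1.73), Myl6 (1.38), Myl6b (1.34), Pdlim7 (1.30) and Myl9 (-1.24). Of the 32 genes 30 were compared, and the shares here are over all 32. The calls with Myod1 expression were 28.1% higher and 18.8% lower, against 14.0% and 7.55% of all genes compared. With Pparg expression 9.38% were higher against 4.22%, and with Setdb1 knockdown 12.5% higher and 15.6% lower against 9.34% and 10.3%. No test sets these counts apart from all genes.

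Overlap and shared sequence bear on a few of the values. Of the 43 genes 19 overlap another gene of the table and 5 overlap one that was compared: Myom1 with Myl12a, Tmod1 with Tstd2, Smyd1 with Krcc1, and Myl4 and Des each with an antisense gene. Smyd1 had at most 1 read without Myod1, with Krcc1 at 10.5 to 15.6 FPKM in the same libraries. Overlap was taken from the spans of genes and not from their exons, and what it adds to a value was not tested. For 35 genes no 50-base stretch of the longest transcript occurs in another gene's transcripts, and over 1% is shared only in Myl1, Tpm3, Klhl41, Tmod1 and Myoz3.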

How the data were processed

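RNA of 5 libraries, 1 per group, was extracted with TRIzol and prepared with the NEBNext Ultra RNA kit, per the labels' protocols. Per the submitters' processing notes the authors used CASAVA, HISAT2, featureCounts 1.5.0-p3 and GRCm38, with no settings. Strand counting and the treatment of shared reads are not given in the sources used here.

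The authors deposited 1 table of FPKM values. In each library 100% of the values above 0, times gene length, were whole multiples (within 0.01) of 1 step, which gave back the reads. The number by which the authors divided was 0.859, 1.10, 0.976, 1.06 and 1.03 times the reads (Myod1, Pparg, empty expression vector, Setdb1, empty knockdown vector), equal to median-of-ratios size factors, so the deposited FPKM were already scaled between libraries.

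From these FPKM the log2 differences (1 added), counts at the 2-fold limit, ratios with exact Clopper-Pearson intervals on the reads of both libraries, family shares, overlaps, shared 50-base stretches (GENCODE M21 transcripts) and motif matches (RefSeq promoters, GRCm38.p6) were computed with Python 3.11.15, pandas 2.3.3, numpy 2.4.6 and scipy 1.17.1. The scripts were tested on simulated data. Named genes are all 43, the targeted genes and the 5 largest changes of each further list; marker genes, other family members and overlapping genes named beside these were chosen after their values were seen. The 43 genes and the lists were chosen with earlier results of these data known. Protein sequences were not used here. The alternatives were another pseudocount, other filters, a 4-fold limit, 3 scalings, the other control library and a 3-read floor. A change against both controls was added after seeing the data.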

Additional observations from a re-analysis of the deposited data

How the results depend on the processing

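With 1 library per group no replicate could be left out, and no paired analysis was possible because no comparison is between replicated groups. Of 461 values of single genes under the alternatives, 316 moved by less than their counting interval, 145 moved by more and 0 reversed a called direction. The median with Myod1 expression, 4.94 over the 38 genes compared, became 7.89 with a pseudocount of 0.1, 4.17 with no filter, 5.36 at a mean FPKM of at least 1, 4.61 after division by the column sum, 4.80 after scaling to the 75th percentile, 4.80 against the other control and 8.73 with a 3-read floor; the first scaling moved the median of all genes by -0.28 and the other by -0.12. With Myod1 expression 32 genes in place of 37 were higher at a 4-fold limit, without Ankrd1, Fbxo32, Mybpc2, Tmod1 and Trim63, and 32 at a mean FPKM of at least 1, without Ankrd1, Mybpc1, Mybpc2, Myoz3 and Pdlim3. At a 4-fold limit, 0 genes were lower with Myod1 expression, 0 higher with Pparg expression and 0 higher with Setdb1 knockdown. With a pseudocount of 0.1, 9 genes were higher and 1 was lower in the Pparg comparison, and 4 were higher with Setdb1 knockdown. Against the other control 2 were higher and 1 was lower with Setdb1 knockdown, and the cause was not tested. With values under 3 reads set to 3 reads and no pseudocount, 10 were higher and 1 was lower in the Pparg comparison (median 0.91), 7 higher and 3 lower with Setdb1 knockdown (median 0.27), and 1 higher and 2 lower between the controls (Myom1, and Tmod1 and Ttn). Against both controls, an alternative chosen after the data were seen, 37 and 1, 3 and 0, and 1 and 0 genes were higher and lower with Myod1 expression, Pparg expression and Setdb1 knockdown. Calls in genes with few reads therefore depend on how low values are treated, and a count of 0 allows up to 3 reads.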
